A study of Mus musculus with 4 samples.

Results

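The mitosis genes described here are 40 genes that encode the kinases, cyclins, checkpoint proteins, kinetochore proteins, motors, condensins and cytokinesis factors of cell division. They were taken by gene symbol from a fixed list of names, and all 40 of 40 were found among the 16375 genes measured. All 40 had a mean of at least 0.1 FPKM over the 4 libraries, the floor set for a gene to enter a comparison, which 10959 genes passed. The cells were bone marrow-derived macrophages (BMDMs), grown in culture from mouse bone marrow with M-CSF, of 4 groups with 1 RNA library each. WT control cells were wild type (the methods name C57BL/6 mice of either sex, a few weeks old when obtained, and the labels give no strain, age or sex) and got no butyrate. WT butyrate cells got 500 µM butyrate, a short-chain fatty acid made by gut bacteria that inhibits histone deacetylases, for 24 h. LNCKO control and LNCKO butyrate cells came from mice on a C57BL/6J background in which the long noncoding RNA lncLy6c had been removed by CRISPR-Cas9, with a deletion that runs from before its first exon to beyond its second, and were left without or given the same butyrate. The deletion is not limited to macrophages, and lncLy6c itself was not analysed here.

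Mitosis begins when CDK1, bound to cyclin A or cyclin B, phosphorylates its substrates, and Polo-like and Aurora kinases then build the spindle. The spindle checkpoint holds sister chromatids together until every kinetochore is attached, after which CDC20 and the anaphase-promoting complex mark cyclin B and securin for destruction. Most of these transcripts accumulate late in the cell cycle and are scarce in cells that have left it, so their summed level in a culture is a common readout of how many cells divide. BMDMs divide in response to M-CSF. In bulk RNA, fewer dividing cells and less mitotic RNA per dividing cell cannot be told apart.

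The library totals, inferred as those that turn the deposited FPKM into whole fragments, lay between 53363944 and 65521713. Whether they count all mapped fragments or only those assigned to genes is not known. With 1 library per group no spread between replicates exists, so no p-value is given, and a gene is said to have risen or fallen when its level moved by more than 0.32 on the log2 scale of FPKM + 0.1 (a rise of 25% or a fall of 20%), a limit of size and not of error. Intervals are 95% exact binomial intervals on fragments and cover counting error only, since read pairs without molecular identifiers are not independent molecules. For the members these intervals reached between 0.025 and 0.13 to each side of a log2 ratio, because each member was covered by between 908 and 27396 fragments in each library. Ccna2, Kif20a, Kif4, Cdca8, Cdc20, Ube2c, Nusap1, Prc1 and Ncapg, 9 of the members, share exon bases with a protein-coding gene on the other strand, and without knowledge of strand their fragments may include that neighbour's. The 4 Y-linked genes Ddx3y, Eif2s3y, Kdm5d and Uty had between 16 and 85 fragments in the WT libraries and between 2051 and 7764 in the LNCKO libraries, so that the genotype and the sex of the donor mice cannot be told apart in any comparison between genotypes.

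Mitosis genes are known to share elements near their start sites: the cell cycle genes homology region (CHR), which binds the DREAM and MYB-MuvB complexes, and CCAAT boxes, which bind NF-Y. RefSeq windows (GRCm38.p6) from 250 bases before to 50 bases after the start site were found for 34 of the 40 members, in 36 windows, since Ect2 and Prc1 had 2 each. Ccna2, Aurkb, Kif20a, Incenp, Tpx2 and Smc4 had none. The letters searched on both strands were TTTGAA and TTTAAA (forms of the CHR, the latter its own reverse complement) and CCAAT. A CHR form and CCAAT can share at most 1 base, while CCAAT on opposite strands can share 2, as in the window of Ube2c. The 120 bases before the start site are printed 5′ to 3′ on the gene's strand for 6 members, chosen as the 3 with the largest and the 3 with the smallest fall under butyrate in WT (on FPKM + 0.1) among those with 1 window whose printed stretch lies outside the annotated gene but for at most 30 bases. Capitals mark the letters searched, on either strand.
Ccnb2: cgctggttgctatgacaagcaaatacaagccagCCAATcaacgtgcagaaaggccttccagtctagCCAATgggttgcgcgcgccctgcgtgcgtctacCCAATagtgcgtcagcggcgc
Cdc20: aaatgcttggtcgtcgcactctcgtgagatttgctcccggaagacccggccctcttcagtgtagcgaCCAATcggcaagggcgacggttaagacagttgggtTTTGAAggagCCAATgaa
Cenpe: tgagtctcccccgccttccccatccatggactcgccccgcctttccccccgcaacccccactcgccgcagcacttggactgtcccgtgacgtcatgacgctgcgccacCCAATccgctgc
Top2a: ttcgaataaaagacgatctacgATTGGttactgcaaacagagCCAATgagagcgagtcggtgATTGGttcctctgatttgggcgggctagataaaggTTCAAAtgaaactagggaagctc
Mki67: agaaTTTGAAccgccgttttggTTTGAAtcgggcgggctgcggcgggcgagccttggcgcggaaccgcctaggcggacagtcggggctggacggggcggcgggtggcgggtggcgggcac
Cdk1: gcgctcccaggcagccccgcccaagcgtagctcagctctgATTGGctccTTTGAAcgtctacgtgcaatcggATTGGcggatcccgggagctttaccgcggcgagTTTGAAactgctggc

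Ccnb2 (chr9:70421555-70421674, minus strand) showed 3 CCAAT boxes in that stretch, and the TTTGAA of its window lay at bases -167 and 5 from the start site, outside it. Cdc20 (chr4:118437344-118437463, minus strand) had TTTGAA at -18 between CCAAT boxes at -53 and -8. Cenpe (chr3:135212443-135212562, plus strand) had 1 CCAAT at -12 and TTTAAA at 15. Those 3 had the largest falls on FPKM + 0.1, while on fragments, with no pseudocount, Kif4 was at -0.56 (counting interval -0.66 to -0.45), which overlaps that of Cenpe at -0.54 (-0.61 to -0.47). Of the other 3, Cdk1 (chr10:69352913-69353032, minus strand) had TTTGAA at -71 and -15, Mki67 (chr7:135716380-135716499, minus strand) had it at -116 and -98, and Top2a (chr11:99024190-99024309, minus strand) had it on the other strand at -23 with 3 CCAAT boxes upstream within the stretch.

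TTTGAA was in 29 of the 36 windows of members (80.6%), beside 12.5% of the 11028 windows of all genes tested and 17.9% of all 32851 RefSeq windows. Either CHR form was in 32 windows (88.9%, beside 19.7% and 27.6%), CCAAT was in 29 (80.6%, beside 38.2% and 37.4%), and both kinds were in 28 (77.8%, beside 7.83% and 10.7%). The windows of Nuf2, Nusap1 and Mad2l1 held none of the letters, which says only that the letters are not in these windows. Members that fell past the limit in WT and members that did not both had a CHR form in 16 of 18 windows. CCAAT was in 15 of 18 and 14 of 18. In the same order TTTGAA was in 15 and 14 windows, TTTAAA in 6 and 3, and 2 or more CCAAT in 11 and 8. Among a further list of 75 mitosis genes TTTGAA was in 47.1% of windows, and among DNA replication genes in 20%.

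**Figure D1:**
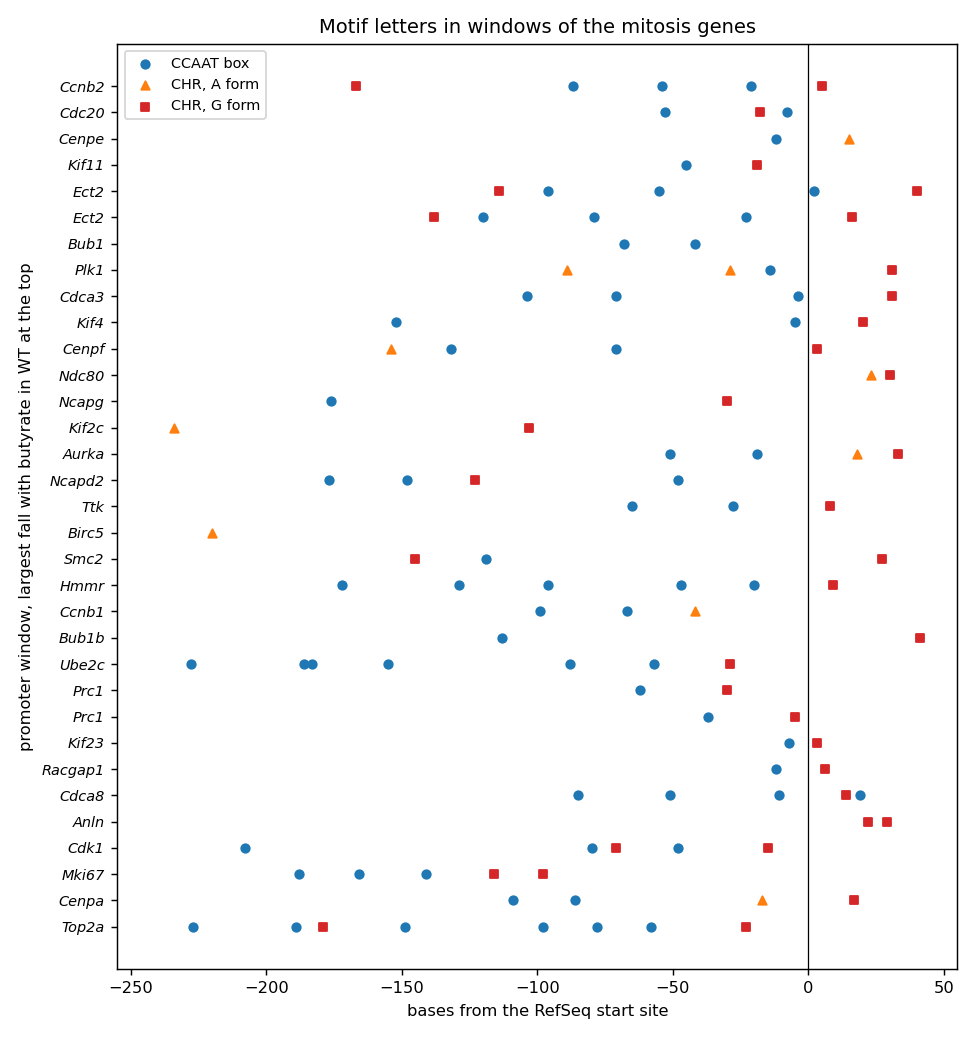
Positions of the CHR and CCAAT letters (either strand), against bases from the start site, in the 33 RefSeq windows of mitosis genes that held any. The largest fall under butyrate in WT is at the top. The windows of Nuf2, Nusap1 and Mad2l1, which held none, are not drawn. Both kinds of letters appear along the whole order, from the members with the largest to those with the smallest fall.

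Every mitosis gene was lower in the WT butyrate library than in the WT control library. All 40 members were below the WT control, 19 of them past the limit and none above it, and the median log2 change was -0.31 (range -0.68 to -0.11). Among all 10959 genes tested 6650 were below 0, 8.35% fell and 7.38% rose past the same limit, with a median of -0.05. The members' median minus that of all genes was -0.26, and 21 of 40 members were in the lowest 10% of genes tested, 12 in the lowest 5% and none in the lowest 1%. The members' summed fragments were 3441 and 2810 per 1000000 in WT cells and 3569 and 3335 in LNCKO cells (control, then butyrate). On deposited FPKM WT butyrate was the lowest library for 40 of 40 members, LNCKO control was the highest for 30, WT control for 8 and LNCKO butyrate for 2. For Mki67 WT butyrate stood at 13.74 FPKM and LNCKO butyrate at 13.83. Median ratio scaling, with factors of 0.968 for WT butyrate and 1.007 for LNCKO butyrate, turned that order.

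**Figure D2:**
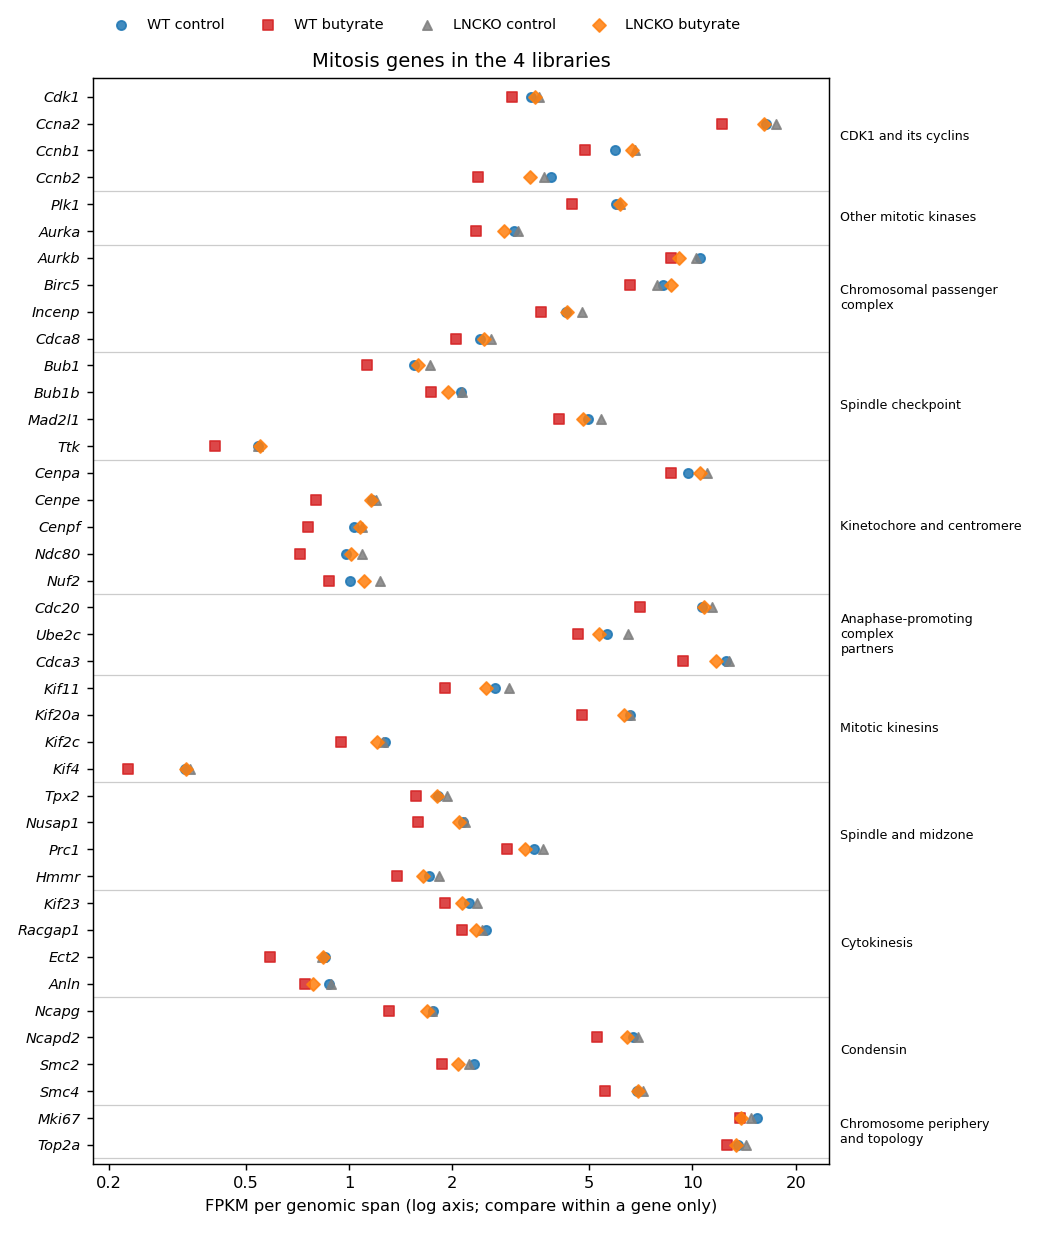
FPKM of each of the 40 mitosis genes in the 4 libraries (log axis, 1 point per library, comparable within a gene only). The WT butyrate point is the lowest of the 4 for all 40 genes, though only just for Mki67.

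**Figure D3:**
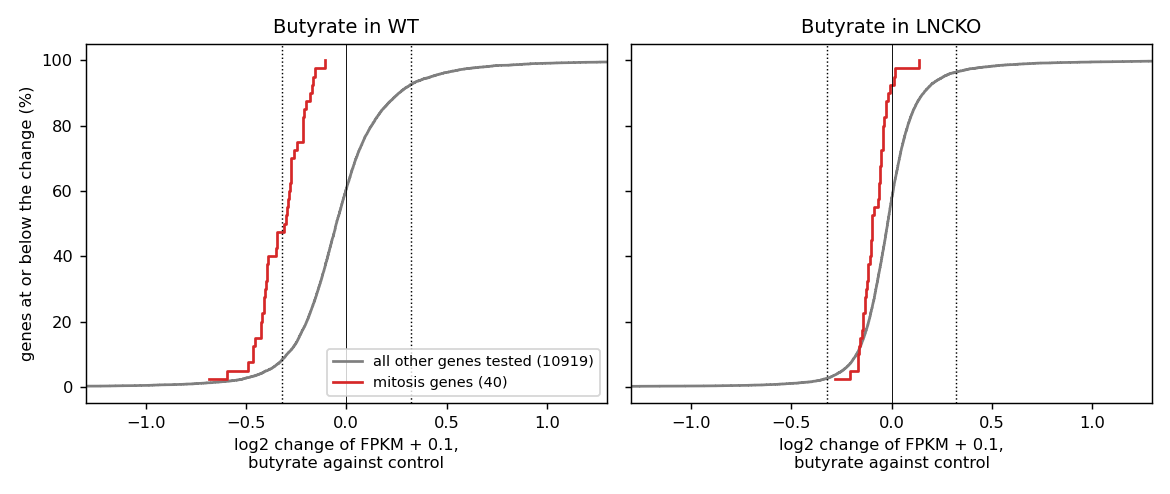
Percent of genes (vertical) at or below each log2 change of FPKM + 0.1 with butyrate (horizontal), in WT (left) and LNCKO (right), for the 40 mitosis genes (red) and all other genes tested (grey), with dotted lines at the limit of 0.32 in each direction. All mitosis genes lie below 0 in WT, with a median of -0.31, and none passes a dotted line in LNCKO, where the median is -0.10.

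CDK1 is the kinase that starts mitosis and its cyclins decide when it is active. Ccnb2, encoding cyclin B2, stood at 3.87 and 2.37 FPKM in WT cells and 3.69 and 3.37 in LNCKO cells (control, then butyrate). It had the largest fall of the 40 in WT, by 0.68 on the log2 scale, and its fragment ratio of -0.71 had a counting interval of -0.79 to -0.62. Ccna2, encoding cyclin A2, was at 16.3, 12.2, 17.5 and 16.1 FPKM in the same order of libraries and fell by 0.42 in WT. Ccnb1, the other B-type cyclin, was at 5.96, 4.88, 6.81 and 6.67 FPKM, a change of -0.28 that did not pass the limit. Cdk1 itself was at 3.38, 2.99, 3.58 and 3.49 FPKM, with a change of -0.17. The kinase was nearest to its control of the 4, with a counting interval on fragments of -0.25 to -0.11 that did not meet those of Ccnb2 and Ccna2 (-0.48 to -0.37) but overlapped that of Ccnb1 (-0.37 to -0.21).

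Both other mitotic kinases fell in WT. Plk1, the Polo-like kinase of centrosome maturation and mitotic exit, was at 5.99 and 4.46 FPKM in WT cells and 6.18 and 6.14 in LNCKO cells (control, then butyrate). Aurka, the Aurora kinase of spindle poles, was at 3.02, 2.35, 3.11 and 2.83 FPKM. Their log2 changes in WT were -0.42 and -0.35. Only the WT butyrate library stood apart from the other 3 for Plk1, which lay within 5.99 to 6.18 FPKM.

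None of the 4 genes of the chromosomal passenger complex, which corrects faulty attachments and then moves to the midzone, passed the limit with butyrate in either genotype. Aurkb, its kinase, was at 10.5 and 8.66 FPKM in WT cells and 10.3 and 9.12 in LNCKO cells (control, then butyrate), with changes of -0.27 in WT and -0.17 in LNCKO. Birc5, which encodes survivin, was at 8.19, 6.57, 7.88 and 8.68 FPKM, -0.31 in WT and 0.14 in LNCKO. It had the highest butyrate change of all members in LNCKO, with a counting interval of 0.07 to 0.21. Incenp, the scaffold of the complex, and Cdca8, which encodes borealin, changed by -0.24 and -0.22 in WT. With butyrate in WT, Birc5 was the member closest to the limit that did not pass it, and Ttk, at -0.34, the closest that did.

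The spindle checkpoint delays anaphase while kinetochores are unattached. Bub1, a checkpoint kinase, was at 1.55 and 1.125 FPKM in WT cells and 1.72 and 1.59 in LNCKO cells (control, then butyrate) and fell by 0.43 in WT. Ttk, the kinase MPS1 that recruits the others, was at 0.543, 0.407, 0.542 and 0.551 FPKM. Bub1b and Mad2l1, which encode the inhibitors BUBR1 and MAD2 of the anaphase-promoting complex, were at -0.28 and -0.27 in WT and at -0.13 and -0.16 in LNCKO. For Ttk the 3 libraries other than WT butyrate lay within 0.542 to 0.551 FPKM, while for Bub1 they spread over 1.55 to 1.72.

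Of the kinetochore and centromere genes 3 of 5 fell in WT. Cenpe, the kinesin that carries chromosomes to the spindle equator, was at 1.17 and 0.803 FPKM in WT cells and 1.20 and 1.16 in LNCKO cells (control, then butyrate). Cenpf, a large coiled-coil protein of the outer kinetochore, was at 1.04, 0.760, 1.09 and 1.07 FPKM. Their changes were -0.49 and -0.40 in WT and -0.04 and -0.02 in LNCKO, and the WT butyrate library was well below 3 libraries that lay close together. Ndc80 and Nuf2 form one dimer of the microtubule-binding complex, and they differed in WT, with a fall of Ndc80 by 0.40 (counting interval on fragments -0.55 to -0.34) and a change of -0.18 for Nuf2 (-0.30 to -0.11). Cenpa, the histone H3 variant that marks centromeres, was at 9.69, 8.68, 11.0 and 10.5 FPKM, a change of -0.16.

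Cdc20, the activator of the anaphase-promoting complex, was at 10.7 and 7.02 FPKM in WT cells and 11.4 and 10.8 in LNCKO cells (control, then butyrate). Its fall by 0.60 in WT was the second of the 40, with a counting interval of -0.69 to -0.52 on fragments, and in LNCKO its change was -0.07. Cdca3, a substrate of the complex, was at 12.5, 9.41, 12.8 and 11.8 FPKM and fell by 0.41 in WT. Ube2c, the ubiquitin-conjugating enzyme that works with the complex, was at 5.65, 4.66, 6.50 and 5.33 FPKM. It was the only member whose butyrate change was lower in LNCKO (-0.28, counting interval on fragments -0.36 to -0.21) than in WT (-0.27), within counting error. Top2a was also near equal in both, at -0.10 in LNCKO and -0.11 in WT.

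The 4 kinesins grouped here by role fell in WT, by between 0.39 and 0.47, as did the kinesin gene Cenpe above, whereas Kif23, a kinesin described with cytokinesis, did not pass the limit. Kif11, which pushes the spindle poles apart, was at 2.67 and 1.90 FPKM in WT cells and 2.92 and 2.51 in LNCKO cells (control, then butyrate). Kif20a, a kinesin of the anaphase midzone, was at 6.56, 4.77, 6.58 and 6.31 FPKM. Kif2c, a microtubule depolymerase at centromeres, and Kif4, a chromosome-bound motor, were at 0.947 and 0.227 FPKM in WT butyrate against 1.27 and 0.334 in WT control. As a role this was the largest median change of the 11 in WT, at -0.43, beside -0.06 in LNCKO.

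Among the spindle and midzone genes Nusap1, a microtubule-bundling protein near chromosomes, was at 2.15 and 1.59 FPKM in WT cells and 2.173 and 2.09 in LNCKO cells (control, then butyrate) and fell by 0.41 in WT. Hmmr, Prc1 and Tpx2, which encode a spindle assembly factor, the midzone crosslinker and the activator of Aurora A, were at -0.29, -0.26 and -0.20 in WT. In cytokinesis Ect2, the exchange factor that activates RhoA at the cleavage site, was at 0.849, 0.587, 0.832 and 0.839 FPKM and fell by 0.47. Kif23, Racgap1 and Anln, which encode the centralspindlin subunits and anillin of the contractile ring, moved less, at -0.22, -0.22 and -0.21. Ect2, with a counting interval on fragments of -0.62 to -0.45, stood apart from these 3, whose intervals lay above -0.32.

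The condensin genes compact chromosomes, and 2 of 4 fell in WT. Ncapg was at 1.76 and 1.31 FPKM in WT cells and 1.74 and 1.69 in LNCKO cells (control, then butyrate), and Ncapd2 at 6.72, 5.27, 6.95 and 6.44. These encode subunits of condensin I, and they fell by 0.40 and 0.35. Smc2 and Smc4, the ATPase core that both condensins use, were at -0.30 and -0.30, which did not pass the limit.

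Mki67 and Top2a had among the smallest changes of the list. Mki67, the proliferation antigen that coats mitotic chromosomes, was at 15.4 and 13.7 FPKM in WT cells and 14.9 and 13.8 in LNCKO cells (control, then butyrate). Top2a, the topoisomerase that untangles sister chromatids, was at 13.6, 12.6, 14.3 and 13.4 FPKM. Their changes were -0.17 and -0.11 in WT and -0.10 and -0.10 in LNCKO, with counting intervals on fragments in WT of -0.20 to -0.14 and -0.13 to -0.08. Per kilobase of exon, with all annotated exons of a gene merged, they were the most abundant members in WT control. Top2a was at 47.0 fragments per 1000000 and Mki67 at 40.8, followed by Smc4 (39.5) and Ccnb2 (35.0). Cenpf (3.19) and Ttk (4.16) were the least. Merged exons can be longer than a transcript, so this order depends on the annotation. Over the 40 members the change in WT had a Spearman rho of 0.37 with merged exon length, given as a description of genes that share the same 2 libraries.

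In LNCKO macrophages under butyrate the mitosis genes lay close to their control. Of the 40 members 37 were below the LNCKO control, beside 6333 of all 10959 genes tested. No member passed the limit in either direction, where 2.64% of all genes tested fell and 3.6% rose. The median was -0.10 (range -0.28 to 0.14), beside -0.02 for all genes, and 2 of 40 members were in the lowest 10% of genes tested. Ube2c at -0.28 and Kif11 at -0.21 were the lowest members, and Birc5 at 0.14, Ttk at 0.02 and Ect2 at 0.01 were the 3 above 0. Across the 40 members the change in WT and that in LNCKO, which share no library, were related with r = -0.14 (Pearson) and rho = -0.24 (Spearman), beside 0.078 and 0.086 over all genes tested. Kif11 was among the lowest members in both genotypes, whereas Ect2 was among the lowest in WT and above 0 in LNCKO.

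**Figure D4:**
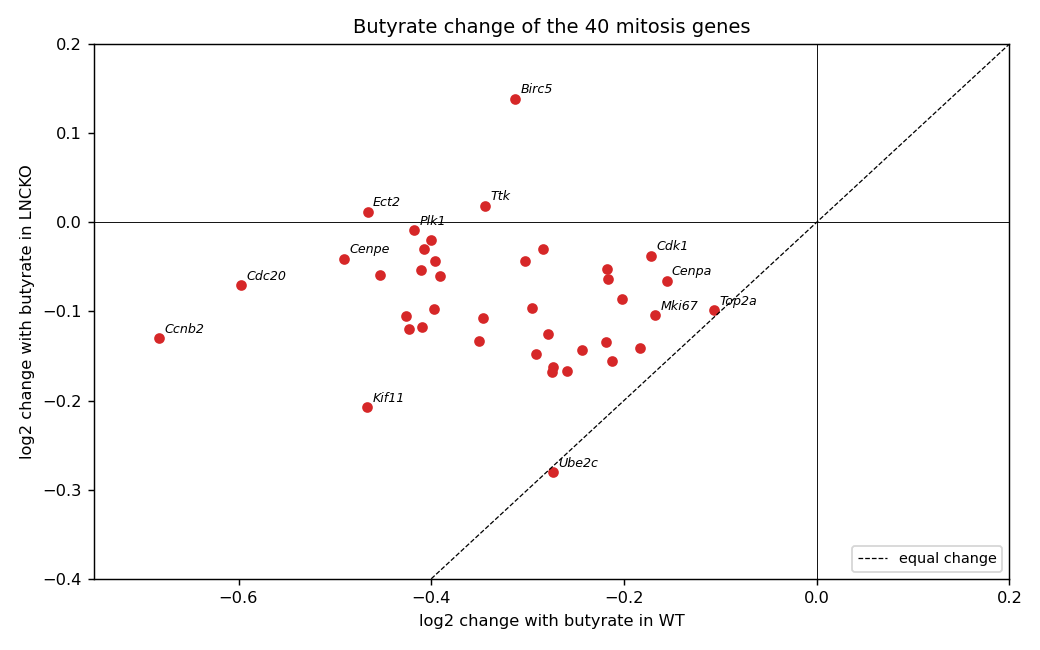
Log2 change of FPKM + 0.1 with butyrate in WT (horizontal) and in LNCKO (vertical) for the 40 mitosis genes, 1 point per gene, with a dashed line where both changes are equal. All points but that of Ube2c lie to the left of the line, and they spread from -0.68 to -0.11 along the WT axis and from -0.28 to 0.14 along the LNCKO axis.

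The butyrate change in WT minus that in LNCKO was below 0 for 39 of 40 members, beside 6185 of all 10959 genes tested. The median was -0.25, beside -0.03 for all genes. Past the limit this difference was lower for 13 members and higher for none, where 9.72% of all genes tested were lower and 9.36% higher. The largest differences were those of Ccnb2 (-0.55), Cdc20 (-0.53), Ect2 (-0.48), Birc5 (-0.45) and Cenpe (-0.45). Ube2c, at 0.01, was the exception. With 1 library in each of the 4 groups this difference could not be tested.

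Without butyrate the genotypes were close. Of the 40 members 30 had more RNA in the LNCKO control library than in that of WT, beside 6172 of all 10959 genes tested. No member passed the limit in either direction, beside 4.5% of all genes tested higher and 3.76% lower. The median was 0.05 (range -0.07 for Ccnb2 to 0.27 for Nuf2), beside 0.02 for all genes. Under butyrate all 40 members were higher in LNCKO than in WT on deposited FPKM, 17 past the limit and none lower. Among all 10959 genes tested 6672 were higher, 8.6% past the limit, and 7.16% were lower past it. The median there was 0.31, beside 0.05 for all genes, from 0.01 for Mki67, whose counting interval of -0.02 to 0.04 includes 0, to 0.62 for Cdc20. This comparison shares the WT butyrate library with that of butyrate in WT, so the 2 are not separate evidence.

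A further list of 75 mitosis genes, of which 74 were tested, had medians near those of the members. In WT 28 fell past the limit and none rose, beside 8.35% and 7.38% of all genes tested, with a median of -0.28. In LNCKO 2 fell and 1 rose, beside 2.64% and 3.6% of all genes tested, with a median of -0.07. In WT Psrc1 (-0.81) and Ckap2 (-0.53), which encode spindle proteins, Kif18b (-0.63), a kinesin, Pimreg (-0.61) and Cdc25c (-0.56), the phosphatase that activates CDK1, fell most. Foxm1, a transcription factor of late cell cycle genes, fell by 0.35 in WT and was at -0.22 in LNCKO, whereas Mybl2, which works with the MuvB complex, was at 0.13 and -0.20.

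The DNA replication genes, which act before mitosis in S phase, lay closer to the WT control. Of the 38 listed 1 fell in WT, Ccne2 (by 0.44), and none rose, beside 8.35% and 7.38% of all genes tested. In WT 17 of the 38 were above 0, beside 4309 of all 10959 genes, and the median was -0.05. In LNCKO none of the replication genes passed the limit, beside 2.64% lower and 3.6% higher of all genes, and their median was -0.09. Their summed level was 2207 and 2138 fragments per 1000000 in WT cells and 2412 and 2251 in LNCKO cells (control, then butyrate), over the 37 genes with whole fragments. The sum of the mitosis genes over that of the replication genes was 1.56, 1.31, 1.48 and 1.48 in the same order. WT butyrate was again the library apart, with a change of -18.3% in the mitosis sum and of -3.13% in the replication sum, while in LNCKO the sums changed by -6.56% and -6.67%.

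Of the CDK inhibitors and D-type cyclins, which govern entry into the cycle, 8 of 10 were tested. In WT 4 fell and none rose, beside 8.35% and 7.38% of all genes tested. Those that fell were Cdkn2c by 0.94, Cdkn1a by 0.41, Cdkn1c by 0.37 and Cdkn1b by 0.34. All 4 are inhibitors, and Cdkn1a, which encodes p21, was at 19.6 and 14.7 FPKM in WT cells and 22.7 and 21.7 in LNCKO cells (control, then butyrate). Ccnd2 and Ccnd1 were at 0.27 and 0.11 in WT, and the median of the list in LNCKO was -0.01. In LNCKO none fell and 1 rose, beside 2.64% and 3.6% of all genes tested. The gene that rose was Cdkn1c (by 0.37), opposite to its fall in WT. The levels of Cdkn1c, from 0.15 to 0.30 FPKM, are near the floor of 0.1. No counting interval was made for it, so the counting error of either change is not known.

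**Figure D5:**
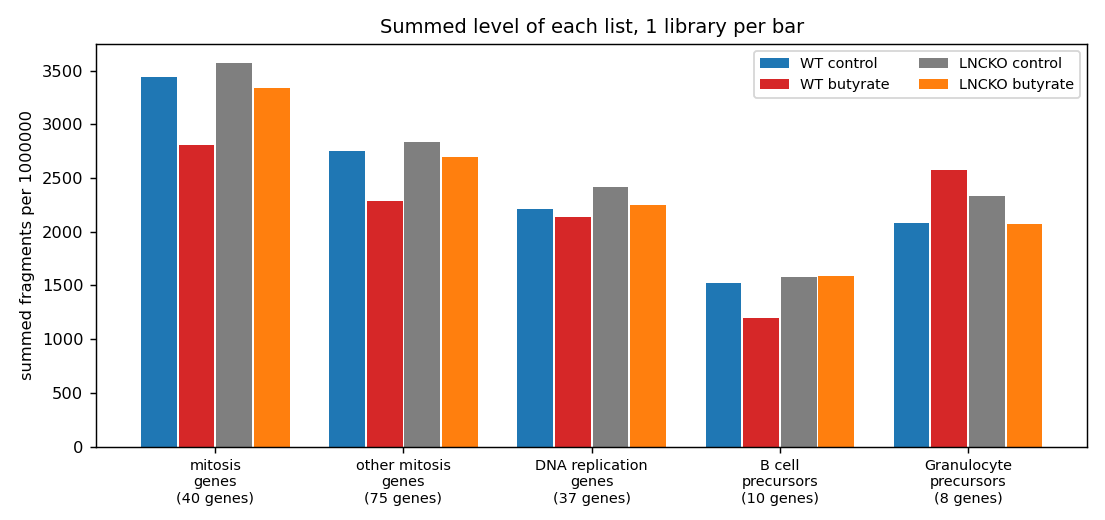
Summed fragments per 1000000 of each gene list in the 4 libraries, 1 library per bar, with the axis from 0. The mitosis genes are at 3441 and 2810 per 1000000 in WT cells and 3569 and 3335 in LNCKO cells (control, then butyrate).

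Markers of cells other than macrophages were present and some moved with the same library. Macrophage markers were at a median change of 0.17 in WT and -0.02 in LNCKO, with all 10 tested and a summed level of 15924 and 20998 fragments per 1000000 in WT cells and 13822 and 10103 in LNCKO cells (control, then butyrate). Past the limit 2 of these markers rose and 1 fell in WT, and 2 fell and none rose in LNCKO. For all marker counts given here, 8.35% of all genes tested fell and 7.38% rose in WT, and 2.64% and 3.6% in LNCKO. In WT 6650 of all 10959 genes tested were below 0. Lyz2, which encodes lysozyme, was at 1972 and 2871 FPKM in WT cells and 1610 and 869.9 in LNCKO cells (control, then butyrate). Csf1r, which encodes the M-CSF receptor, had a change of 0.00 in WT and -0.09 in LNCKO. B cell precursor markers, some of which mark a dividing stage, were below 0 in WT for 10 of 10, with 6 past the limit, Rag1 (-2.06) and Igll1 (-1.75) lowest, a median of -0.40 in WT and 0.00 in LNCKO, and sums of 1525, 1198, 1579 and 1586 per 1000000. That sum changed with butyrate by -21.4% in WT and 0.457% in LNCKO, beside -18.3% and -6.56% for the mitosis genes. No macrophage or B cell precursor marker was at 0 in any library. Granulocyte precursor markers, of which 8 of 8 were tested and none was at 0, had medians of 0.16 and -0.09 and sums of 2077, 2576, 2334 and 2074 per 1000000. In WT 2 of the 8 rose, Elane among them (0.68), and 2 fell, Ms4a3 (-0.41) and Fcnb (-0.43). Erythroid markers (3 of 7 tested, medians 0.13 and 1.48, with sums from 6.17 to 64.1 per 1000000) had Klf1 at 0 in LNCKO butyrate and Car1 at 0 in all libraries but LNCKO butyrate. Mast cell and basophil markers (5 of 6 tested, medians 0.06 and -0.13, sums 77.5 to 121.7), T and NK cell markers (5 of 6 tested, -0.20 and 0.16, sums 71.0 to 83.9) and stromal markers (6 of 6 tested, 0.05 and 0.91, sums 72.7 to 251.4) had no marker at 0. The part of these cells in the change of the mitosis genes was not tested.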

How the data were processed

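Expression was measured by RNA-seq in 4 libraries, 1 per group, and groups were taken from the sample titles. The authors deposited FPKM per gene. Per the submitters' processing notes the tools were STAR 2.5.0c, Picard 1.126, bedtools 2.17.0, HTSeq 0.6.0 and DESeq2 3.0 with GRCm38/mm10. The paper's methods and the labels name different extraction kits and sequencing platforms, and strand handling is not given in the sources used here. Multiplying FPKM by the genomic span of GENCODE M21 genes and the library total gave whole fragments (within 0.05) for 98.6% of 16342 matched genes, against 7.48% on exon length. FPKM is therefore per span, and levels between genes were compared per kilobase of exon. Log2 changes used FPKM + 0.1 and genes with a mean of at least 0.1 FPKM, and a rise of 25% or a fall of 20% was the limit. All members were named. Of other lists the 5 largest rises and falls per comparison could be named, besides Cdkn1a, Foxm1 and Mybl2, and any cell marker, of which 1 is not reported here. The members and lists were chosen with earlier results of these data known. Calculations, tested on simulated data, were run in Python 3.11.15 with pandas 2.3.3, numpy 2.4.6 and scipy 1.17.1, and plots drawn with matplotlib 3.10.9. Alternatives were another pseudocount, filter, fold limit and scaling.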

Additional observations from a re-analysis of the deposited data

How the results depend on the processing

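With 1 library per group no library could be left out, since its group would then be empty. No paired analysis was possible because each group has 1 library, so that a block by the number shared in the library names leaves no spread to estimate. No median for the list changed sign. Of 115 list values 105 stayed close to the reported ones (a median within 0.1, a count within 1.5 times). Many of them could hardly move, being counts of 0, and all 40 members passed the filter, so dropping it changed nothing. The tolerance of 0.1 is wider than the medians for butyrate in LNCKO and for the genotypes without butyrate. With a pseudocount of 1 FPKM, which damps genes of low FPKM, the members that fell with butyrate in WT went from 19 to 7, those higher in LNCKO under butyrate from 17 to 7 (median 0.31 to 0.20), and those with a lower change in WT than in LNCKO from 13 to 5 (median -0.25 to -0.14). The shares of all genes tested went from 8.35% to 2.16%, from 8.6% to 2.80% and from 9.72% to 3.29%. At 1.5-fold the members' counts were 2, 1 and 0, beside 1.83%, 2.38% and 2.86% of all genes. Of the members 9 share exon bases with a protein-coding gene on the other strand, among them Cdc20, Kif20a, Ccna2 and Ube2c, whose fragments cannot be told apart if strand was not used. Without those 9, a choice made after seeing the data, 31 members gave counts of 13, 11 and 8. Median ratio scaling left 16, 14 and 10. It moved all genes from 8.35% lower and 7.38% higher to 5.91% and 9.56% in WT, and from 7.16% lower and 8.6% higher to 9.04% and 6.24% between genotypes under butyrate. For single members 755 of 800 values stayed close and 45 moved (39 with a pseudocount of 1 FPKM). A reversal was counted only for values past the limit, and 0 were found. Smaller changes could turn in sign, as that of Mki67 between genotypes under butyrate did with median ratio scaling. Bub1 gave whole fragments at a length within 0.5% of its span.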
